A study of Bos taurus and other sequences with 9 samples.

Results

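Muscle and heart miRNAs in cell culture media were traced through 5 of the 425 miRNAs that were counted, namely hsa-miR-1, hsa-miR-133a-3p, hsa-miR-206, hsa-miR-208b-3p and hsa-miR-499a-5p. All 5 were listed. They were chosen by name as muscle-rich miRNAs, after their levels in commercial EV-depleted FBS (SBI-dFBS) and in untreated FBS had been seen: hsa-miR-206, hsa-miR-208b-3p and hsa-miR-499a-5p exceeded 1 spike-in normalized count in a sample of SBI-dFBS and in none of FBS, and hsa-miR-133a-3p differed between the lots of SBI-dFBS. Values of SBI-dFBS against FBS, and of its lots against each other, are therefore given as descriptions with no test.

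Small ncRNA was sequenced from 9 media samples after EV isolation. Each of the 4 FBS-based media (FBS and its SBI-dFBS, UC-dFBS and UF-dFBS versions) had 2 samples, all in DMEM/F12 basal medium with penicillin-streptomycin. FBS-1 contained serum from Sigma-Aldrich and FBS-2 serum from Gibco, and the same sera were depleted of EVs by ultracentrifugation (UC-dFBS-1, UC-dFBS-2) or by collecting the flow-through of a centrifugal filter (UF-dFBS-1, UF-dFBS-2). SBI-dFBS came from System Biosciences in 2 lots, each with 1 sample and without a sample of its untreated serum. StemPRO, a defined serum-free medium for mesenchymal stem cells, had 1 sample. The samples of a medium thus differ in serum or lot, and their spread holds that difference. Total miRNA counts ranged from 937 in UF-dFBS-2 to 203755 in FBS-1. A spike-in normalized count, the level used here, stood for 3.78 counts in SBI-dFBS-2 and up to 108 counts in StemPRO. The upper limit set by a count of 0, taken as 3 counts and called the floor, lay between 0.0278 and 0.794 spike-in normalized counts. Intervals and floors cover counting error only.

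miR-1, miR-133a and miR-206 are known as miRNAs of striated muscle. miR-1 and miR-133a are made in both heart and skeletal muscle, whereas miR-206 is largely restricted to skeletal muscle. miR-208b and miR-499 lie within genes of myosin heavy chains and are known from heart and slow skeletal muscle. They enter blood from injured muscle and are used as serum markers of heart or muscle damage. For the 5 miRNAs, 7 bovine miRNA genes were found in RefSeq's annotation of the bovine assembly ARS-UCD2.0. In that annotation MIR1-1 has MIR133A-1 and MIR1-2 has MIR133A-2 within 20 kb, MIR206 has MIR133B within 20 kb, MIR208B is spanned by MYH7, and MIR499 by MYH7B. The miRNA names printed here are the human ones under which the deposited table lists them.

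hsa-miR-133a-3p was the most counted of the 5. It had 4 counts in FBS-1, 10 in FBS-2, 389 in SBI-dFBS-1 and 4 in SBI-dFBS-2. In UC-dFBS it had 3 counts in each sample, in UF-dFBS 1 and 3 counts, and in StemPRO none. On the spike-in scale FBS had 0.826 and 1.34, SBI-dFBS had 43.0 and 1.06, UC-dFBS had 0.459 and 0.440, and UF-dFBS had 0.0181 and 0.125 normalized counts. SBI-dFBS-1 was higher than the 8 other samples and held 93.3% of all counts of this miRNA, and the other lot of SBI-dFBS lay within the range of FBS. The mean of SBI-dFBS was accordingly 22.0 ± 29.7 (SD, n = 2), against 1.08 ± 0.365 in FBS (SD, n = 2).

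hsa-miR-499a-5p, which is encoded in a slow myosin gene, had 65 counts in SBI-dFBS-1 and 2 in SBI-dFBS-2. It was at 0 in FBS-1 and had 5 counts in FBS-2. Outside SBI-dFBS-1 its highest level was 0.671 spike-in normalized counts, in FBS-2, against 7.19 in SBI-dFBS-1. UC-dFBS had 0 and 1 counts, UF-dFBS 1 and 0 counts, and StemPRO 0. In 7 of the 8 other samples the count was therefore at or under the floor.

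hsa-miR-206, the skeletal muscle relative of miR-1, had 3 counts in FBS-1, 7 in FBS-2, 42 in SBI-dFBS-1 and 4 in SBI-dFBS-2. These counts correspond to 0.619, 0.939, 4.64 and 1.06 spike-in normalized counts. Only SBI-dFBS-1 stood apart, since SBI-dFBS-2 and FBS-2 were close to each other. UC-dFBS had 1 count in each sample, UF-dFBS 0 and 3, and StemPRO 0.

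hsa-miR-208b-3p, encoded in the gene of the slow cardiac myosin, was the least counted, with 33 counts in all samples together. Of these, 28 were in SBI-dFBS-1, at 3.10 spike-in normalized counts. FBS-1 and FBS-2 had 2 counts and 1 count, SBI-dFBS-2 and UF-dFBS-1 had 1 each, and the remaining samples had 0. Outside SBI-dFBS-1 no sample exceeded the floor.

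hsa-miR-1 was counted in every sample, with a different distribution. FBS-1 and FBS-2 had 32 and 22 counts, SBI-dFBS 50 and 8, UC-dFBS 17 and 3, UF-dFBS 27 and 18, and StemPRO 21. Spike-in normalized, FBS had 6.61 and 2.95, SBI-dFBS had 5.53 and 2.12, UC-dFBS had 2.60 and 0.440, UF-dFBS had 0.489 and 0.749, and StemPRO had 0.194. SBI-dFBS-1 was below FBS-1 here. By mean level the order was FBS (4.78 ± 2.58, SD, n = 2), SBI-dFBS (3.82 ± 2.41), UC-dFBS (1.52 ± 1.53), UF-dFBS (0.619 ± 0.184) and StemPRO, and each of the first 4 media overlapped with its neighbours among them, whereas StemPRO was below both samples of UF-dFBS. Of all counts of hsa-miR-1, 25.3% were in SBI-dFBS-1, against 89.6% for the 4 other miRNAs together and 15.5% for all miRNAs.

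**Figure D1:**
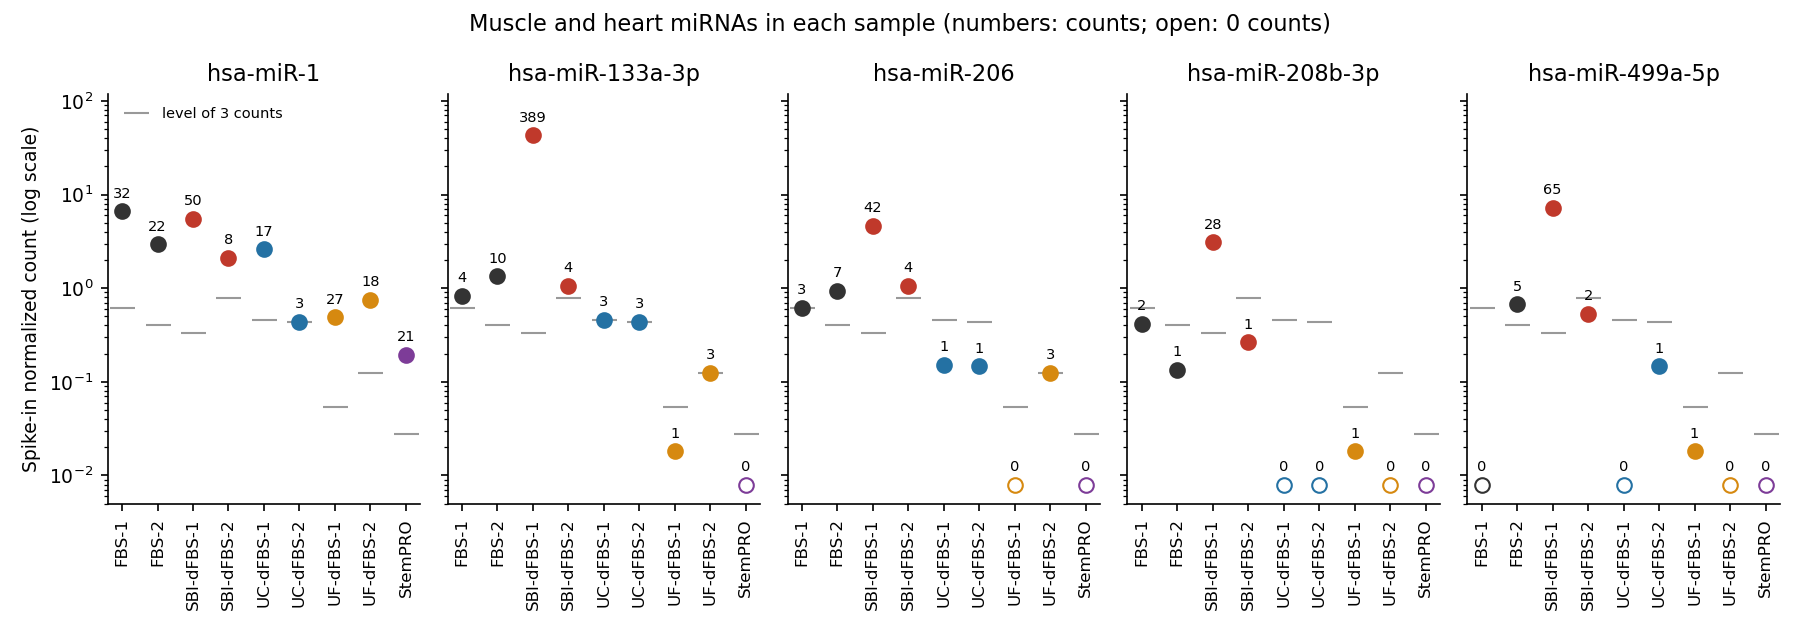
Spike-in normalized count (log axis) of each of the 5 miRNAs in the 9 samples, with the raw count printed at each point, open circles for 0 counts placed at the bottom of the axis, and grey dashes at the level of 3 counts. The 4 miRNAs other than hsa-miR-1 stand well above their floor in SBI-dFBS-1 (28 to 389 counts), whereas hsa-miR-1 has 3 to 50 counts in all 9 samples.

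The lots of SBI-dFBS differed in all 5 miRNAs in the same direction. The ratio of SBI-dFBS-1 to SBI-dFBS-2 on the spike-in scale was 40.6 for hsa-miR-133a-3p (exact 95% counting interval 15.7 to 150), from 389 and 4 counts. It was 13.6 for hsa-miR-499a-5p (3.61 to 114) and 11.7 for hsa-miR-208b-3p (1.93 to 478), with 2 counts and 1 count in the second lot. hsa-miR-206 had a ratio of 4.39 (1.59 to 16.8) and hsa-miR-1 of 2.61 (1.23 to 6.38). The intervals treat the spike-in factor as known and overlap for most pairs, but those of hsa-miR-133a-3p and hsa-miR-1 do not.

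Total miRNA went the other way, with SBI-dFBS-1 at 0.590 times SBI-dFBS-2, and the median miRNA was close to equal, at 0.923 over the 134 miRNAs with at least 10 counts in SBI-dFBS-1. Most of the total was hsa-miR-122-5p, with 58945 of 86679 counts in SBI-dFBS-1 and 45006 of 61315 in SBI-dFBS-2. Its own ratio was 0.547, so the total mainly followed this 1 miRNA. All 5 muscle and heart miRNAs were at least 2-fold higher in SBI-dFBS-1, where 13.4% of these 134 miRNAs were. As the miRNAs had been chosen with this difference known, nothing is read from that count. With counts under 3 in SBI-dFBS-2 set to 3, hsa-miR-133a-3p had the highest ratio of the 134, hsa-miR-499a-5p the third, hsa-miR-206 the fifth, hsa-miR-208b-3p the 7th and hsa-miR-1 the 11th. hsa-miR-128-3p (12.6) and hsa-miR-4532 (8.46) were the others among the first 5.

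**Figure D2:**
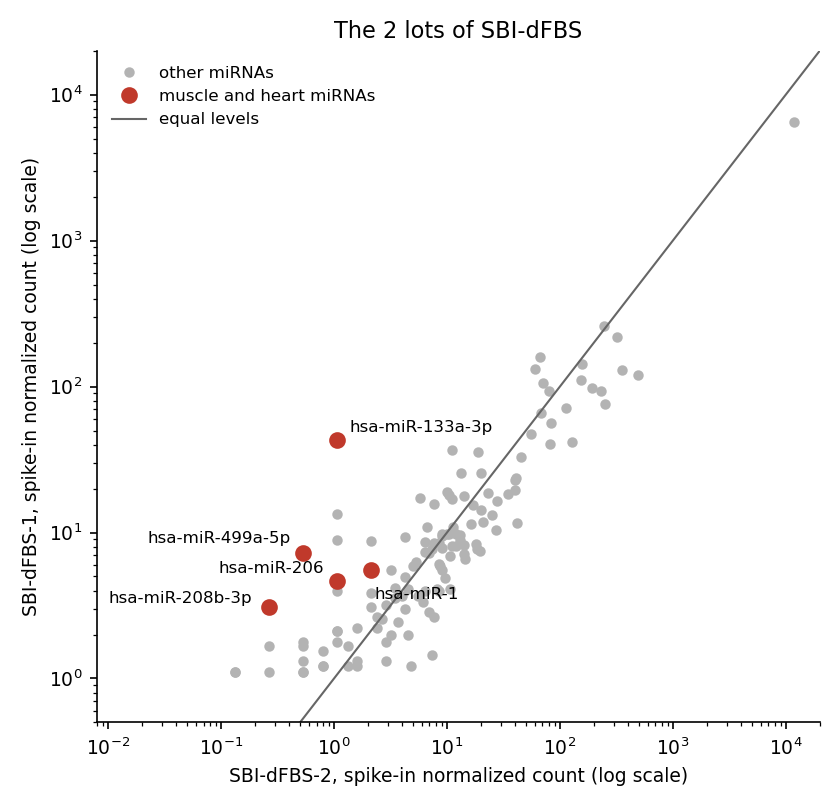
Spike-in normalized counts (log axes) in SBI-dFBS-1 against SBI-dFBS-2 for the 134 miRNAs with at least 10 counts in SBI-dFBS-1, a count of 0 in SBI-dFBS-2 being drawn below the level of 1 count; the line marks equal levels. The 5 muscle and heart miRNAs (red) lie above the line, with hsa-miR-133a-3p farthest from it at a ratio of 40.6.

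Markers of other tissues were compared between the lots in the same way. The median ratio of SBI-dFBS-1 to SBI-dFBS-2 was 0.547 for 3 liver miRNAs, 0.719 for 3 red cell miRNAs, 0.435 for white cell and platelet miRNAs (2 of 3 with at least 10 counts) and 0.671 for 3 vessel wall miRNAs. Of 11 such miRNAs, 1, a red cell miRNA, was higher in SBI-dFBS-1, and through it the summed red cell level was 1.51 times as high there while the median was lower. The median of the 5 muscle and heart miRNAs was 4.39 with counts under 3 in SBI-dFBS-2 set to 3, as in these lists, and 11.7 with the counts as they are. A list of 4 brain miRNAs, of which 3 were counted, was carried by hsa-miR-128-3p with 121 and 4 counts, and its summed level was 13.1 times as high in SBI-dFBS-1. What part these markers have in the difference was not tested.

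Summed over the 5 miRNAs, SBI-dFBS-1 had 63.5 spike-in normalized counts, from 574 counts, and SBI-dFBS-2 had 5.03, from 19 counts. FBS-1 and FBS-2 had 8.46 and 6.04. The ratio of the lots was 12.6 (8.01 to 21.1). Its size depended on the members summed, as it was 5.15 without hsa-miR-133a-3p and 19.9 without hsa-miR-1. As a share of all miRNA counts the sum was 0.662% in SBI-dFBS-1 (exact 95% interval 0.609 to 0.718%), against 0.0310% in SBI-dFBS-2 (0.0187 to 0.0484%), 0.0201% in FBS-1 and 0.0362% in FBS-2. SBI-dFBS-2 lay within the range of untreated FBS in this share.

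The make-up of the group also differed between samples. In SBI-dFBS-1 hsa-miR-133a-3p held 67.8% of the counts of the 5 miRNAs and hsa-miR-1 8.71%. hsa-miR-1 held 78.0% in FBS-1, 48.9% in FBS-2, 42.1% in SBI-dFBS-2 and all counts in StemPRO. Although the genes of both miRNAs lie next to each other in pairs, hsa-miR-133a-3p had 7.78 counts per count of hsa-miR-1 in SBI-dFBS-1 (exact 95% interval 5.78 to 10.7), 0.125 in FBS-1 (0.0321 to 0.352) and 0.455 in FBS-2 (0.192 to 1.00). This ratio compares miRNAs within a library and does not depend on the spike-ins. Differences in how well each miRNA is ligated and amplified do not cancel in it, so only its change between samples can be read.

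The paralogs and other arms of these miRNAs had few counts. Of 9 names looked for, 3 were listed. hsa-miR-133b, whose gene is next to that of miR-206, had 7 counts in all, 5 of them in SBI-dFBS-1. hsa-miR-208a-3p, from the gene of the fast cardiac myosin, had 2 counts and hsa-miR-499a-3p, the other arm of miR-499a, had 1. miR-133a and miR-133b are nearly identical, and how reads that match both were assigned is not given in the sources used here, so that their counts may be partly exchanged.

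The levels of hsa-miR-133a-3p were compared with those of other miRNAs across the 8 FBS-based samples. Pearson's r of log2(spike-in normalized count + 1) with hsa-miR-133a-3p was 0.98 for hsa-miR-499a-5p, 0.98 for hsa-miR-208b-3p and 0.96 for hsa-miR-206 (n = 8 samples). The members were chosen with their high levels in SBI-dFBS-1 known, and without this sample the r were 0.78, 0.66 and 0.94 (n = 7), mostly from counts at or near the floor, with 0.70 for hsa-miR-1. Among the 163 miRNAs with at least 10 counts in at least 2 of these samples, the highest r were those of hsa-miR-4532 (0.79), hsa-miR-128-3p (0.70), hsa-miR-92a-3p (0.65), hsa-miR-1 (0.60) and hsa-miR-100-5p (0.60). The points share the libraries and their spike-in factors, and the values are descriptions.

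The next comparison asked how far ultracentrifugation lowered these miRNAs in the sera. Ultracentrifugation left hsa-miR-1 at 0.394 times its FBS level in the Sigma serum (exact 95% counting interval 0.205 to 0.730) and at 0.149 times in the Gibco serum (0.0286 to 0.496). For hsa-miR-133a-3p the ratios were 0.556 (0.0814 to 3.29) and 0.328 (0.0580 to 1.27), from 3 against 4 and 3 against 10 counts, so that a change was not detectable at this depth. Total miRNA was at 0.185 and 0.231 times FBS. Summed over the 5 miRNAs, the mean of UC-dFBS was 0.302 times that of FBS, with 0.380 in the Sigma and 0.194 in the Gibco serum.

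Only 2 of the 5 miRNAs, hsa-miR-1 and hsa-miR-133a-3p, had at least 10 counts in at least 2 of the 8 FBS-based samples and entered the fit. hsa-miR-133a-3p did so only through SBI-dFBS-1 and FBS-2, and its levels in both media were known when it was chosen, so its fitted fold changes are given as descriptions with no test. The levels of hsa-miR-1 in these media had also been seen when it was chosen. Its adjusted p-values, here and below, do not allow for that choice and are read as descriptions. In edgeR's quasi-likelihood test with Benjamini-Hochberg adjustment, the log2 fold change of UC-dFBS against FBS was -1.64 ± 0.94 (SE, adjusted p = 0.084) for hsa-miR-1, and the fitted value of hsa-miR-133a-3p was -1.29 ± 1.00 (SE). hsa-miR-1 was not called lower, whereas 90.8% of the 163 miRNAs tested were, with a median log2 fold change of -2.70. In a fit of FBS, UC-dFBS and UF-dFBS with the serum as replicate block, which leaves out SBI-dFBS, hsa-miR-1 was called lower at -1.70 ± 0.69 (SE, edgeR adjusted p = 0.015). The same 6 samples without the block gave -1.64 ± 1.00 (SE, edgeR adjusted p = 0.11), and hsa-miR-133a-3p had too few counts to enter either fit. Relative to the other miRNAs (TMM scaling, which compares each miRNA with the bulk of the others), both signs turned, to 0.89 ± 0.71 (SE) for hsa-miR-1 and 1.15 ± 1.41 (SE) for hsa-miR-133a-3p, and for hsa-miR-1 this was not past the threshold (edgeR adjusted p = 0.90). Both comparisons with FBS use the same FBS samples.

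hsa-miR-1 was lower in UF-dFBS on the spike-in scale, by less than most miRNAs, and higher under TMM scaling. The log2 fold change of UF-dFBS against FBS was -3.82 ± 0.97 (SE, edgeR adjusted p = 8.87e-05) for hsa-miR-1, and the fitted value of hsa-miR-133a-3p, from 1 and 3 counts in UF-dFBS, was -4.91 ± 1.03 (SE). Of the 163 miRNAs, 98.2% were called lower, with a median of -9.37. A higher log2 fold change than that of hsa-miR-1 was found for 4 miRNAs. Under TMM scaling hsa-miR-1 was higher in UF-dFBS by 5.92 ± 0.78 (SE, log2, edgeR adjusted p = 1.93e-05) and the fitted value of hsa-miR-133a-3p turned to 4.30 ± 1.81 (SE, log2). TMM moved the median of all tested miRNAs from -9.37 to -0.59.

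**Figure D3:**
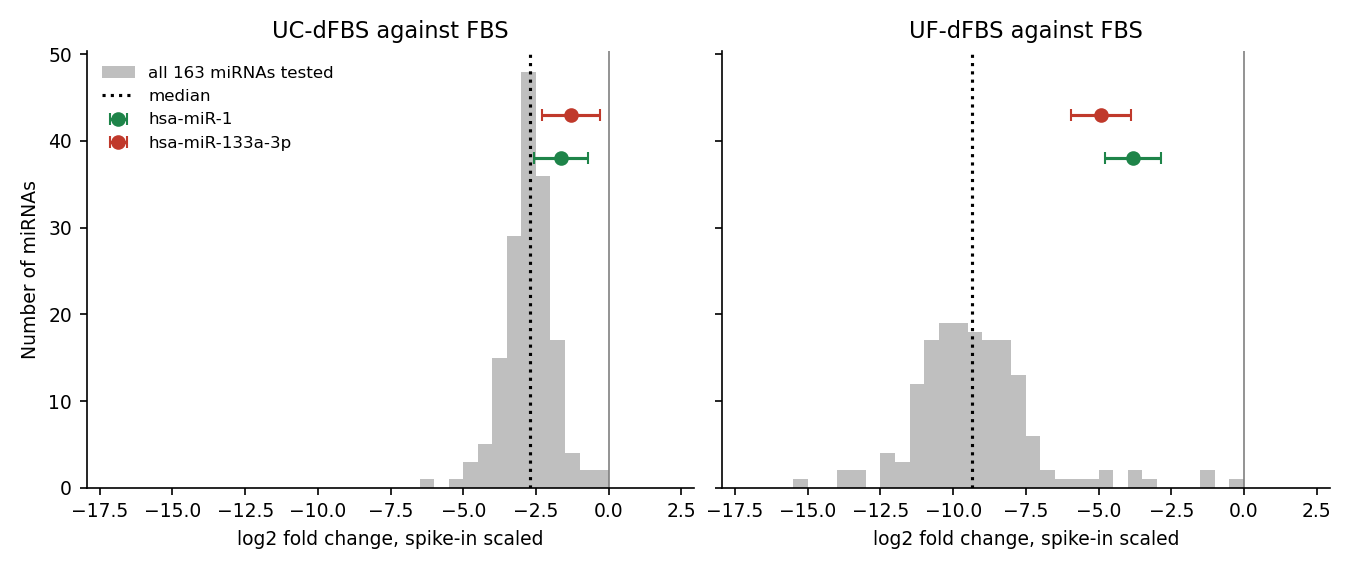
Histograms of the log2 fold change (spike-in scaled) of the 163 tested miRNAs in UC-dFBS and in UF-dFBS against FBS, with the median as a dotted line; coloured points with bars give the fold change and SE of hsa-miR-1 and hsa-miR-133a-3p, whose height has no meaning. Both lie to the right of the median, by most in UF-dFBS (-3.82 and -4.91 against -9.37); under TMM scaling all 4 fold changes are above 0.

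Within each serum, hsa-miR-1 was 13.5 times lower in UF-dFBS-1 than in FBS-1 and 3.94 times lower in UF-dFBS-2 than in FBS-2, whereas total miRNA was 553 and 428 times lower. The median miRNA with at least 10 counts in either sample was 194 and 79.5 times lower, with counts under 3 set to 3. Had hsa-miR-1 been lowered like total miRNA, 0.660 counts would be found in UF-dFBS-1 and 0.166 in UF-dFBS-2, and 27 and 18 were. For hsa-miR-133a-3p the same calculation gives 0.0825 and 0.0753 counts against 1 and 3 found. For hsa-miR-206, hsa-miR-208b-3p and hsa-miR-499a-5p it gives at most 0.0619 counts in either sample, and 0 to 3 were found. hsa-miR-206 in UF-dFBS-2 had 3 counts against 7 in FBS-2, a ratio of 0.133 with an exact 95% counting interval of 0.0222 to 0.583, which lies above the ratio of total miRNA, 0.00234. These 3 counts equal the floor and come from 1 library, and UF-dFBS-1 had 0 counts of hsa-miR-206. No difference from total miRNA is read from them. For the other values of these 3 miRNAs the intervals reach down to 0 or below the ratio of total miRNA, except that of hsa-miR-499a-5p in the Sigma serum, where FBS-1 had 0 counts.

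The share of hsa-miR-1 among all miRNA counts showed the same difference between media. It was 0.0157% in FBS-1 (exact 95% interval 0.0107 to 0.0222%) and 0.0177% in FBS-2 (0.0111 to 0.0268%), 0.0577% in SBI-dFBS-1 and 0.0130% in SBI-dFBS-2. UC-dFBS had 0.0335% and 0.0114%. In UF-dFBS it was 0.642% (0.424 to 0.933%) and 1.92% (1.14 to 3.02%), and in StemPRO 1.46% (0.906 to 2.22%). The 3 samples with the fewest miRNA counts were above the 6 others, and their intervals did not overlap with those of the others. By count hsa-miR-1 ranked 122nd and 130th among the miRNAs in FBS, and 16th and 10th in UF-dFBS and 16th in StemPRO.

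Counts of hsa-miR-1 ranged 16.7-fold over the 9 samples, from 3 to 50, while total miRNA counts ranged 217-fold and the counts of all small ncRNAs 1028-fold. The raw counts in UF-dFBS and StemPRO, 18 to 27, were close to those of FBS, 22 and 32. The samples with a high share of hsa-miR-1 are also those with the highest spike-in factors (24.0 to 108 counts per spike-in normalized count, against 3.78 to 9.04 in the others), and the part of this factor in the result was not tested.

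The 4 other miRNAs did not share this pattern in StemPRO, where each had 0 of 1438 miRNA counts, which allows a share of up to 0.209% each by the floor of 3 counts, or 0.256% by the exact 95% bound used for the other shares. Together they held 0.605% of the miRNA counts in SBI-dFBS-1 (0.554 to 0.658%), 0.0714% in UF-dFBS-1 (0.0147 to 0.208%) and 0.640% in UF-dFBS-2 (0.235 to 1.39%), the latter from 6 counts. In FBS and UC-dFBS the share was between 0.00442% and 0.0190%.

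**Figure D4:**
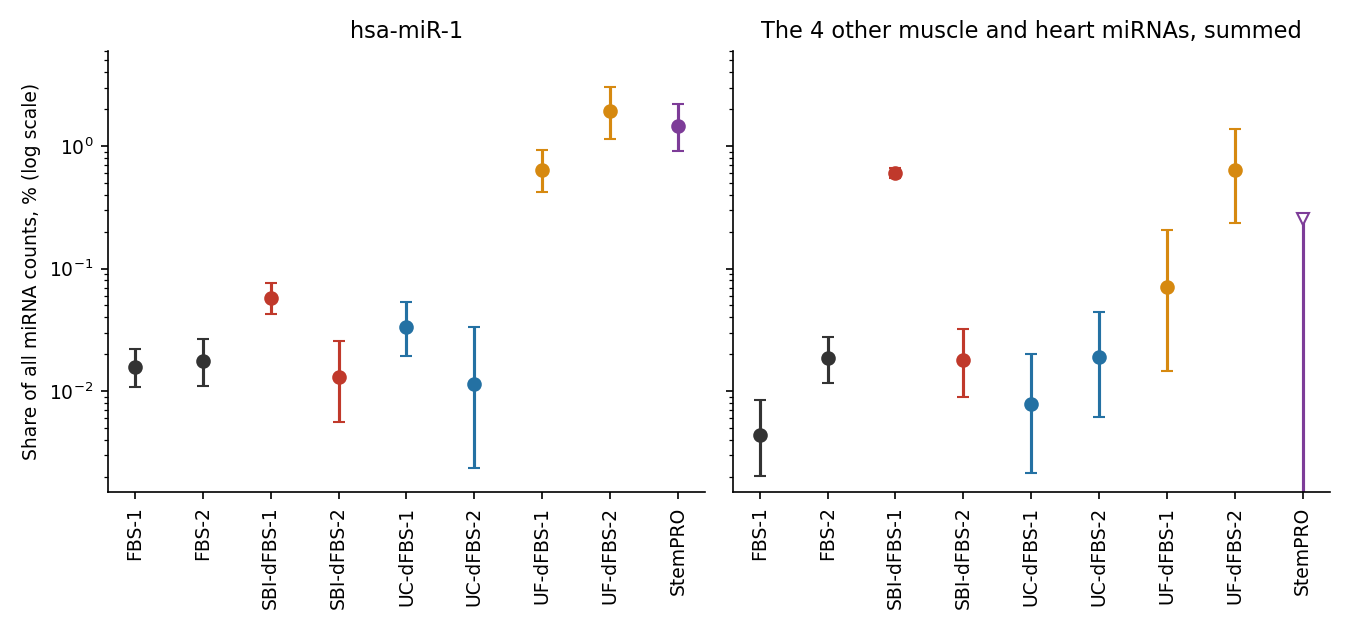
Share of all miRNA counts (percent, log axis) held by hsa-miR-1 (left) and by the 4 other miRNAs together (right) in each sample, with exact 95% counting intervals; the open triangle in StemPRO marks the upper bound for 0 counts. hsa-miR-1 is highest in UF-dFBS and StemPRO (0.642 to 1.92%), and the others are at 0.605% in SBI-dFBS-1 and, from 6 counts, at 0.640% in UF-dFBS-2.

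The sera of both suppliers were compared over their 3 preparations. hsa-miR-1 was the only member with at least 10 counts in at least 3 of these 6 samples. Its log2 fold change of Sigma against Gibco serum, with the medium as a term, was 0.92 ± 0.64 (SE, edgeR adjusted p = 0.24), which is not past the threshold, where 46.7% of 105 miRNAs were called in either direction. The Sigma sample was higher in FBS and UC-dFBS (6.61 against 2.95, and 2.60 against 0.440 spike-in normalized counts) and lower in UF-dFBS (0.489 against 0.749). For the 4 other miRNAs summed, FBS-1 had 9 counts and FBS-2 had 23, a ratio on the spike-in scale of 0.602 with an exact 95% counting interval of 0.245 to 1.35, which does not separate the sera.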

How the data were processed

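RNA from EV isolates of 9 media samples, which can also hold RNA outside vesicles, was sequenced with UMIs (QIAseq miRNA kit). The authors trimmed reads with cutadapt 1.11, collapsed identical inserts with the same UMI, added reads with a partial UMI, and aligned them with Bowtie2 2.2.2, first to mature miRBase sequences (perfect matches) and the rest to a genome (human GRCh37 or bovine UMD3). The deposited counts hold these reads per miRNA. The second table, deposited after scaling to external spike-ins, holds a signal: each count is divided by a factor per sample, which the authors took from a line through the origin fitted to the spike-ins. This factor was checked to be constant within each sample. Reads shared by similar miRNAs and the error of that fit were not analysed here.

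The miRNAs, lists and comparisons were chosen with earlier results of these data known. Named miRNAs were the 5 members, their paralogs and arms, the 5 miRNAs most correlated with hsa-miR-133a-3p, and the 5 with the largest ratio between lots of SBI-dFBS. Marker lists were liver, red cells, white cells and platelets, vessel wall and brain.

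Counts were tested with the quasi-likelihood F-test of edgeR 4.0.16 under R 4.3.3 (library sizes from the spike-in factors, Benjamini-Hochberg adjusted p threshold 0.05) in the 8 FBS-based samples (at least 10 counts in at least 2 samples) or, for suppliers, in the 6 samples of FBS, UC-dFBS and UF-dFBS (at least 3 samples, medium as a term). The fit of UC-dFBS against FBS was tried on simulated counts, with changes in both directions and no difference between sera or lots. The other fits were not simulated. Alternatives were TMM, DESeq2 1.42.0, no filter, leaving out samples and the serum as replicate block. The pairing comes from the serum, as the methods state. The differences between samples 1 and 2 correlated across 105 miRNAs with r = 0.67 (FBS with UC-dFBS), 0.26 (FBS with UF-dFBS) and 0.14 (UC-dFBS with UF-dFBS). p-values measure the spread between single samples of each serum or lot. The SE printed with edgeR fold changes was derived from the F statistic, as the absolute log2 fold change divided by the square root of F. Ratios and shares have exact 95% binomial intervals (python 3.11.15, scipy 1.17.1).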

Additional observations from a re-analysis of the deposited data

Results flagged for a closer look

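In StemPRO, which has 1 sample and entered no test, hsa-miR-1 had 21 counts, above the 3 that a count of 0 allows, whereas the 4 other muscle and heart miRNAs had 0. These counts are in a sample outside the tested comparisons, and their source was not tested. The paper reports a lower overlap with bovine miRNAs for StemPRO reads than for the other media. It proposes that a larger part of these reads may be experimental noise. Inserts as short as 16 nt were kept, and the insert lengths of hsa-miR-1 were not analysed here.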

How the results depend on the processing

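Under TMM in place of the spike-ins, 0 miRNAs were called between UC-dFBS and FBS by edgeR (9 at an unadjusted p under 0.05, and 134 by DESeq2 with spike-in factors) instead of 148, 22 between UF-dFBS and FBS instead of 160, and 13 between the sera instead of 49. TMM reversed 4 log2 fold changes: hsa-miR-1 to 0.89 and hsa-miR-133a-3p to 1.15 in UC-dFBS, and to 5.92 and 4.30 in UF-dFBS, since it sets miRNAs against each other. DESeq2 called 18 miRNAs between the sera. Without a filter, 282 of 419 miRNAs were called in UF-dFBS and 160 of 419 in UC-dFBS. Leaving out 1 sample gave 40 (without UC-dFBS-2) to 122 calls in UC-dFBS, with 86 without FBS-1, and 131 to 160 in UF-dFBS. It moved hsa-miR-1 in UC-dFBS between -3.41 and -0.86, past the threshold without FBS-2 (edgeR adjusted p = 0.040) or without UC-dFBS-1 (edgeR adjusted p = 0.040), fits in which the remaining single sample is assumed to vary like the other media. The replicate block, fitted without SBI-dFBS, gave 154 and 156 calls, against 135 and 155 in the same samples without it (added after the data had been seen). Of the members it tested hsa-miR-1 only, whose UF-dFBS call it did not change (-3.75).

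The summed level of the 5 miRNAs in SBI-dFBS-1 over SBI-dFBS-2 was 30.2 on raw counts, 21.4 as a share of miRNA counts and 5.15 without hsa-miR-133a-3p. As a share of miRNA counts, UC-dFBS over FBS rose to 1.28 and UF-dFBS over FBS to 58.2, with 0.628 for the latter on raw counts. Single sera gave 0.194 to 0.380 for UC-dFBS and 0.0642 to 0.166 for UF-dFBS. The alternatives for UF-dFBS sums, for sums without hsa-miR-1 and for folds of single members were added after the data had been seen. Of the 5 miRNAs most like hsa-miR-133a-3p, 2 were kept with a pseudocount of 0.1 and 1 on levels scaled to total miRNA counts. Counts under about 10 limit each value of hsa-miR-206, hsa-miR-208b-3p and hsa-miR-499a-5p outside SBI-dFBS-1.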
